A study of Mus musculus with 30 samples.

Results

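The genes described here are 10 members of the immediate early response measured in mouse colon (distal colon by the study's methods, colon in the labels): the AP-1 subunits Fos, Fosb, Jun and Junb, the related factor Atf3, the zinc finger factor Egr1, the early response gene Ier2 and the orphan nuclear receptors Nr4a1, Nr4a2 and Nr4a3. They were taken by name, with earlier results of these data known but with no rule on their values, and each was found once among the 46078 genes of the count table. The 30 libraries came from C57BL/6J mice in 5 groups of 6 animals: females and males on a control diet (CD F and CD M), females and males on a high fat diet (HFD F and HFD M), and high fat diet males given estrogen (HFD+E2 M). Every animal was on its diet for 13 weeks and was injected 9 times over the last 3 weeks, with vehicle in the first 4 groups and with 0.5 mg/kg of estrogen (17β-estradiol, E2) in the last. Females had not been ovariectomized, so their own estrogen was present in both female groups.

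Immediate early genes are transcribed within minutes of a stimulus, because the factors that switch them on, SRF with its ternary complex partners and CREB, already sit in the cell and need only be phosphorylated. Their messages decay quickly, and most of their protein products are transcription factors that form AP-1 dimers or bind their own sites and then drive a later wave of genes. In the gut they respond to growth factors, stretch, microbial products and injury, and the NR4A receptors are orphan nuclear receptors known mostly through how fast their own transcription responds. Feedback regulators such as the DUSP phosphatases, which take phosphate off MAP kinases, and TRIB1, a pseudokinase, are made in the same wave.

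The libraries held 8667177 to 17243712 counted reads in genes, with a median of 11530916, and mitochondrial genes took 26.1% to 38.0% of them. Levels are given below as TPM, which is scaled to transcript length and library size. The 10 colon epithelial markers summed to 4480 to 7516 TPM, none of them being at 0 throughout a group. Markers of 8 other cell types were followed because these were pieces of bulk tissue, in which fewer cells of a type and less RNA per cell cannot be told apart. All 8 smooth muscle markers were lower in CD F than in CD M at the threshold of the study (here an unadjusted p under 0.05 with an absolute log2 fold change over 0.4), 5 of them also at an adjusted p under 0.05 in edgeR, with summed levels of 2474 to 3851 TPM in CD F and 3921 to 6572 TPM in CD M. Summed levels of 10 stratified squamous markers had a median of 701 TPM in HFD F and medians of 0.812 to 1.43 TPM in the other 4 groups, while the highest HFD M library reached 351 TPM. Other cell types also differed between CD F and CD M, as given with that comparison, and the part of any of them in the values below was not tested.

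Fos was the most abundant of the 10 transcripts per unit of length, and the 3 receptors and Fosb lay at the bottom. Fos, the AP-1 subunit that dimerizes with JUN proteins, had a median of 20.3 TPM over the 30 libraries and ran from 6.09 to 77.0 TPM. Jun and Junb, its partner subunits, had medians of 13.7 and 10.4 TPM, and Atf3, a CREB family factor induced by stress, had a median of 9.81 TPM. Ier2, a small early response protein, stood at 6.89 TPM and Egr1, a factor of GC-rich sites, at 1.78 TPM. Nr4a1, the receptor also called NUR77, had a median of 1.64 TPM, Fosb of 0.813 TPM, Nr4a2 of 0.481 TPM and Nr4a3 of 0.382 TPM. The ranges of genes next to each other in this order overlapped widely, since single animals moved a gene by more than the step between neighbours. Nr4a2 and Nr4a3 rested on 3 to 39 and 6 to 72 reads a library, so that their small differences were limited by counting error. Fosb ran from 2 to 294 reads, and its low libraries share this limit. Jun shares exon sequence with Junos and Junb with Prdx2 on the opposite strand, and whether the counting kept strands apart is not given in the sources used here.

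**Figure D1:**
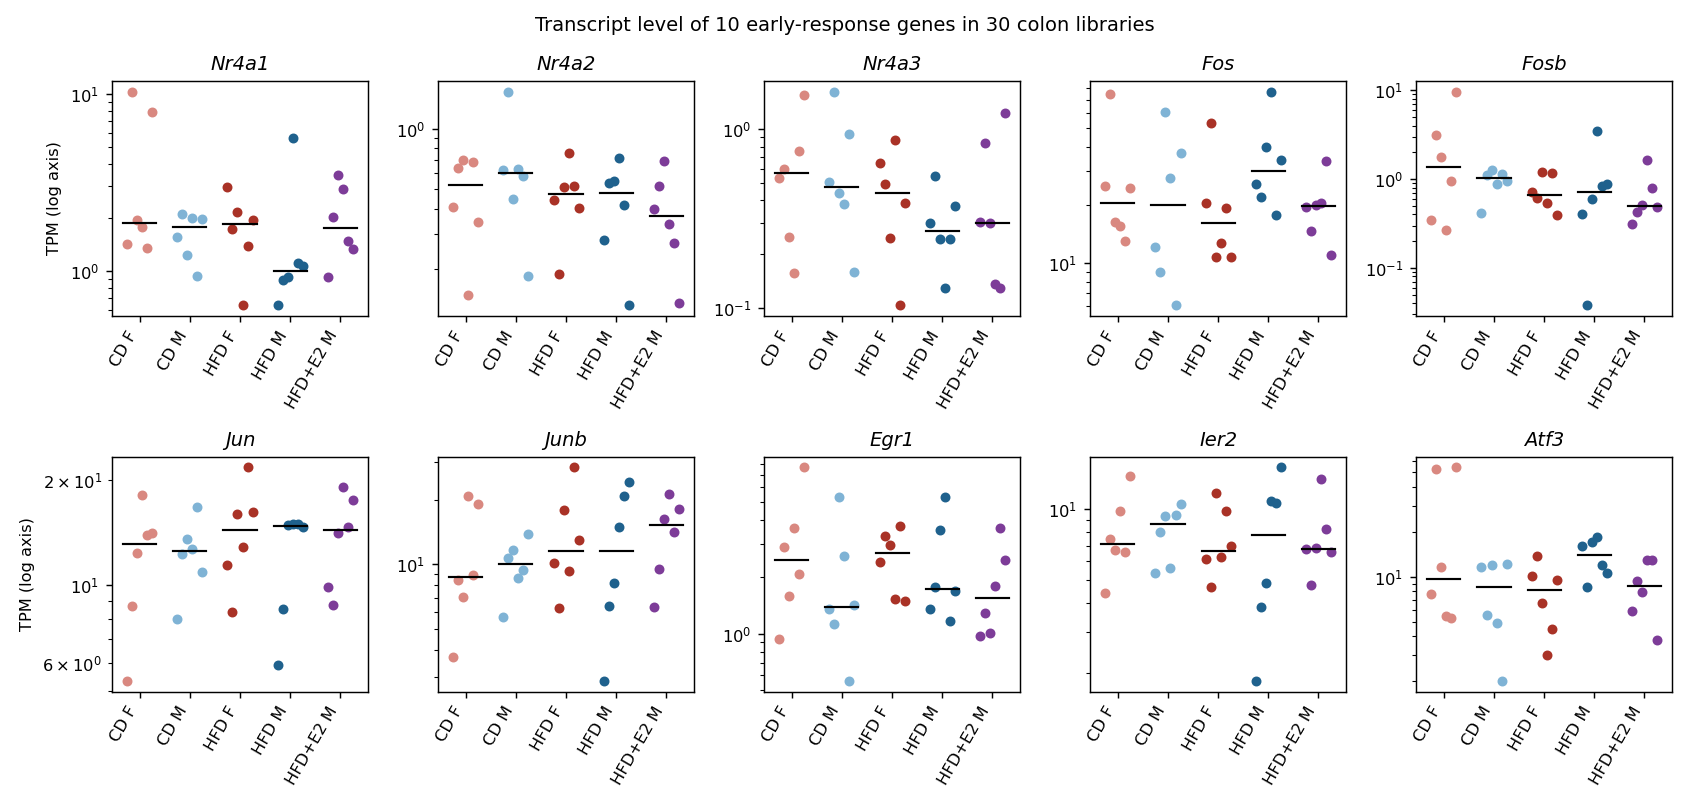
Transcript level in TPM on a log axis (each panel with its own range) for the 10 genes, 1 panel a gene and 1 point an animal, with 6 animals in each of the 5 groups and a line at each group median. Group medians lie closer together than single animals do, though those of Fosb run from 0.494 (HFD+E2 M) to 1.36 TPM (CD F). Single animals stand far above or below the medians, such as CD F replicates 2 and 6 at 52.7 and 54.0 TPM for Atf3.

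The bases just upstream of these genes are shown because the genes fell into sets that varied together, as described below. In GRCm38, Nr4a1 spans chr15:101266846-101274792 (plus strand), Fos chr12:85473890-85477273 (plus), Fosb chr7:19302721-19310045 (minus), Atf3 chr1:191170296-191218039 (minus), Nr4a3 chr4:48045153-48086447 (plus) and Nr4a2 chr2:57106830-57124003 (minus). Jun (chr4:95049034-95052222), Junb (chr8:84976909-84978748) and Ier2 (chr8:84661331-84662852) lie on the minus strand with 1 exon each. Sequences from RefSeq (GRCm38.p6) were matched by symbol for 8 of the 10 members. The core site of the cyclic AMP response element, TGACG on either strand, the sequence bound by CREB and ATF factors, was found within 250 bases upstream of the start in 7 of these 8, against 17.8% of 32851 promoters of the same length, and in 4 copies in each of Nr4a1, Nr4a2 and Nr4a3, against 0.688% of promoters with 3 or more. Jun was the member without it. The last 120 bases upstream were 57.5% to 85.0% GC in these 8 members. The shares over all promoters were not matched for GC content. The full palindrome TGACGTCA, which holds the core site on both strands, the AP-1 site TGANTCA, the EGR site GCGTGGGCG and the SRF site known as the CArG box were each absent from the same 250 bases of all 8 members, and were present in 1.55%, 6.75%, 0.536% and 1.47% of promoters. Only exact matches were counted, and bases farther upstream were not searched. Egr1 and Ier2 were not among the 8, so this absence does not extend to them. The 120 bases that end at the start site follow for 2 pairs of genes, with each core site in capitals, 5′ to 3′ on the strand of the gene. Fos and Nr4a1 belong to the set that varied with Atf3, and Jun and Junb varied with each other.
Fos, chr12:85473770-85473889, plus strand: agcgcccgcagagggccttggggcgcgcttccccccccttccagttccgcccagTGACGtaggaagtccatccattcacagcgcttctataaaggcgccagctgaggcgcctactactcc
Nr4a1, chr15:101266726-101266845, plus strand: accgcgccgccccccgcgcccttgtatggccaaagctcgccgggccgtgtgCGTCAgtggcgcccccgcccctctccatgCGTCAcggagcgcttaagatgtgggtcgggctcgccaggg
Jun, chr4:95052223-95052342, minus strand: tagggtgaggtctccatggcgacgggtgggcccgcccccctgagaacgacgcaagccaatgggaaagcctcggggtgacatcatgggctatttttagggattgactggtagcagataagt
Junb, chr8:84978749-84978868, minus strand: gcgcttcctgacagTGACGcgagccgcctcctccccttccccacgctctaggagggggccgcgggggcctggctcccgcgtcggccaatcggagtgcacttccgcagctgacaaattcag
For Fosb and Atf3, whose upstream bases lie in an exon of another annotated transcript, only the core site and the bases beside it are given.
Fosb, chr7:19310089-19310117, minus strand: tggagttgcgggTGACGcaagcgcggggg
Atf3, chr1:191183334-191183352, minus strand: ttaatagcattaCGTCAgc
These core sites lie 66 to 62 bases upstream of the start in Fos, 60 to 56 in Fosb, 7 to 3 in Atf3 and 106 to 102 in Junb, while Nr4a1 has copies at 40 to 36 and at 69 to 65 within the window shown. For Atf3 the start is that of a shorter transcript, which begins inside the span of the gene given above. The start used for Nr4a3, whose bases are not shown, also lies inside its span, and its upstream bases overlap an exon of Nr4a3. A match is a run of letters and says nothing of binding in these colons.

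To ask how the high fat diet altered these genes in females, HFD F was compared with CD F. Nr4a1, Fosb and Atf3 were lower on HFD at the threshold of the study, which 3.67% of the 15061 genes tested also passed. None of the 10 passed an adjusted p of 0.05 in edgeR, as 0.0199% of genes did, and none did in DESeq2. Nr4a1 ran from 1.35 TPM through a median of 1.86 TPM to 10.3 TPM in CD F, and from 0.642 through 1.83 to 2.97 TPM in HFD F. The medians were thus alike, and what set the means apart was CD F replicates 2 and 6, at 10.3 and 7.86 TPM, above every animal on HFD. The log2 fold change of Nr4a1 was −1.19 (SE 0.50, adjusted p = 0.785 in edgeR). Atf3 ran from 5.30 through 9.66 to 54.0 TPM in CD F and from 3.0 through 8.10 to 13.9 TPM in HFD F. The same CD F replicates stood apart, at 52.7 and 54.0 TPM, with the next at 11.6 TPM. The log2 fold change of Atf3 was −1.52 (SE 0.64, adjusted p = 0.803 in edgeR). Fosb had 9.65 TPM in CD F replicate 6 and 3.17 TPM in replicate 2, and 0.269 to 1.77 TPM in the other 4, against 0.392 to 1.2 TPM in HFD F. Its log2 fold change was −1.83 (SE 0.71, adjusted p = 0.718 in edgeR). Two-sided exact permutation tests of log2 CPM, counts scaled to library size, gave p of 0.193, 0.167 and 0.195 for Nr4a1, Atf3 and Fosb (smallest possible 0.00216). With CD F replicates 2 and 6 left out together, an alternative chosen after seeing the data, no member passed either threshold, and the log2 fold changes of Nr4a1, Fosb and Atf3 became −0.03, −0.30 and −0.05. The other 7 members did not pass, with Fos at −0.50, Nr4a3 at −0.44, Egr1 at −0.38, Nr4a2 at −0.22, Ier2 at −0.17, Jun at 0.17 and Junb at 0.24 on the log2 scale. In all, 8 of the 10 fitted values lay below 0, with a median of −0.41, where the median of all genes was 0.00.

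Related genes of the early response were read alongside. Of 22 feedback regulators tested, 2 were lower on HFD in females at the threshold of the study and none was higher. These were Dusp6, the phosphatase of ERK (log2 fold change −0.84, SE 0.24), and Trib1 (−1.0, SE 0.34), with adjusted p of 0.500 and 0.595 in edgeR. Of the 11 other early transcription factors tested none passed, and none of the 12 upstream regulators did. Among 7 cytoskeletal and secreted targets of SRF or YAP, Thbs1, which encodes the matrix protein thrombospondin, was lower (−0.46), and of 10 heat shock genes Hspb1, a small chaperone, was higher (0.49), with adjusted p of 0.598 and 0.868 in edgeR.

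To ask whether the sexes differed on the control diet, CD F was compared with CD M. The same 6 CD F libraries serve as one side here and in the diet comparison, so the 2 results are not independent. Nr4a1, Fosb and Atf3 were higher in females at the threshold of the study, which 9.15% of 14922 genes passed. No member passed the adjusted p in edgeR, as 2.92% of genes did, or in DESeq2. Nr4a1 had a log2 fold change of 1.37 (SE 0.47, adjusted p = 0.162 in edgeR), and CD M animals ran from 0.934 through 1.76 to 2.11 TPM. Atf3 had 1.52 (SE 0.64, adjusted p = 0.280 in edgeR), with CD M at 2.01 through 8.59 to 12.1 TPM. Fosb had 1.53 (SE 0.70, adjusted p = 0.338 in edgeR), with CD M at 0.415 through 1.02 to 1.28 TPM. The exact permutation p were 0.0801, 0.169 and 0.348 in this order. Except for CD F replicates 2 and 6 the females lay within the range of the males for Nr4a1 and Atf3. For Fosb the other females ran from 0.269 to 1.77 TPM, beyond the males on both sides. Without both libraries the log2 values of Nr4a1, Atf3 and Fosb were 0.21, 0.04 and −0.01 and no member passed. The other 7 members had log2 values from −0.13 (Nr4a3) to 0.70 (Egr1), and 9 of the 10 lay above 0, with a median of 0.28 against 0.01 over all genes. Leaving out any of CD F replicates 2 and 6 and CD M replicates 1, 2, 4 and 5 left 1 member past the threshold. A set of 3 feedback regulators were also higher in CD F at this threshold and none was lower, with log2 fold changes of 0.49 for Dusp5, 0.76 for Dusp6 and 0.92 for Trib1 and adjusted p of 0.170, 0.204 and 0.183 in edgeR. Flna, the actin crosslinker filamin A, was lower by the adjusted test (−0.49, SE 0.10, adjusted p = 0.0153 in edgeR) and Ctgf, a secreted matrix protein, was lower at the threshold of the study (−0.47, adjusted p = 0.102 in edgeR). Both are also expressed in smooth muscle, whose markers were lower in CD F as given above. At the same threshold 4 of 8 fibroblast markers were lower in CD F (summed levels of 332 to 677 TPM, against 606 to 996 TPM in CD M), as were 3 of 8 macrophage markers (51.3 to 77.4 against 72.7 to 114 TPM) and 2 of 8 endothelial markers (24.6 to 39.3 against 33.7 to 56.2 TPM). Of 8 B cell markers 4 were higher in CD F (13.8 to 64.2 against 0.771 to 49.7 TPM). No marker of these 4 types was at 0 throughout either group, and their part in the differences of Nr4a1, Fosb and Atf3 was not tested.

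The diet effect was then compared between the sexes by an interaction term over the 24 vehicle libraries. Atf3 passed the threshold of the study, with a diet effect that was lower in females than in males by 2.30 on the log2 scale (SE 0.77, adjusted p = 0.623 in edgeR), as 5.18% of 15800 genes passed. No member and 0% of genes passed the adjusted p in edgeR, 1066 genes having an unadjusted p under 0.05, whereas DESeq2 called 7 genes and no member. Fosb and Nr4a1 had interaction terms of −1.93 (SE 1.0) and −1.36 (SE 0.72), both with adjusted p = 0.741 in edgeR, and did not pass. The median over the 10 was −0.37, against 0.01 over all genes. Dusp6 (−1.06) and Trib1 (−1.32) passed the threshold of the study with adjusted p of 0.581 and 0.560 in edgeR. Without CD F replicates 2 and 6 the term of Atf3 was −0.82 and no member passed.

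In males, HFD M was compared with CD M. Nr4a3 was the only member to pass the threshold of the study, which 2.9% of 14991 genes passed. It ran from 0.159 through 0.473 to 1.63 TPM in CD M and from 0.129 through 0.270 to 0.547 TPM in HFD M, so the groups overlapped, and the highest CD M animal was replicate 2. The log2 fold change was −1.07 (SE 0.43, adjusted p = 0.807 in edgeR), and the exact permutation p was 0.147. Without CD M replicate 2 it was −0.63 and without CD M replicate 5 it was −0.92, and neither passed. Atf3 had 2.01 through 8.59 to 12.1 TPM in CD M and 8.5 through 14.1 to 18.5 TPM in HFD M, a log2 fold change of 0.77 (SE 0.36, adjusted p = 0.823 in edgeR). It just missed the threshold of the study in edgeR, passed it in DESeq2 at 0.78, and had an exact permutation p of 0.0541. No member passed the adjusted p. In edgeR 0% of genes did, with 904 at an unadjusted p under 0.05, and DESeq2 called 26 genes. The remaining 8 members had log2 values between −0.16 (Nr4a2) and 0.52 (Fos), and the median of all 10 was 0.14, against −0.01 over all genes. Thbs1 was lower (−0.79, adjusted p = 0.704 in edgeR) and Cyr61, another secreted matrix protein of the SRF or YAP targets, was higher (0.66, adjusted p = 0.823 in edgeR) at the threshold of the study, and no feedback regulator passed.

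Estrogen was examined in HFD males, HFD+E2 M against HFD M. Fos was the only member past the threshold of the study, which 5.87% of 15010 genes passed, and none passed the adjusted p in edgeR or DESeq2, as 0.00666% of genes did in edgeR. Fos ran from 17.7 through 29.9 to 77.0 TPM with vehicle and from 11.1 through 19.8 to 34.0 TPM with E2. The groups overlapped, and HFD M replicate 4 was the highest. The log2 fold change was −0.69 (SE 0.32, adjusted p = 0.488 in edgeR). The exact permutation p was 0.106. The log2 value was −0.37 without HFD M replicate 4 and Fos lost this threshold without 8 of the 12 libraries in turn (HFD M replicates 3 to 6 and HFD+E2 M replicates 1, 2, 4 and 6). Atf3, at 3.76 through 8.68 to 12.9 TPM with E2, had −0.50 (SE 0.28, adjusted p = 0.522 in edgeR), and the other 8 members lay between −0.40 (Fosb) and 0.35 (Nr4a1). The median over the 10 was 0.12, against 0.00 over all genes. Dusp10, a phosphatase of JNK and p38 (0.60), Thbs1 (0.51) and the chaperone genes Hspb1 (0.52) and Bag3 (0.42) were higher with E2 at the threshold of the study, with adjusted p of 0.465, 0.434, 0.455 and 0.461 in edgeR.

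Between the sexes on HFD, Atf3 was lower in females. Its levels ran from 3.0 through 8.10 to 13.9 TPM in HFD F and from 8.5 through 14.1 to 18.5 TPM in HFD M, so 3 of the 6 females reached the range of the males. The log2 fold change was −0.77 (SE 0.31, adjusted p = 0.872 in edgeR). An exact permutation test of log2 CPM over the splits of the 12 animals gave p = 0.0411 (two-sided, smallest possible 0.00216), the only one of 50 such tests (10 genes in 5 comparisons) under 0.05. Atf3 lost the threshold of the study without HFD F replicate 3 or 5 or HFD M replicate 3 or 4. At the threshold of the study Atf3 was the only member of the 10, and 3.09% of 15179 genes passed it. No member passed the adjusted p, as 0.0988% of genes did. Fos had −0.77 (SE 0.43, adjusted p = 0.872 in edgeR, exact permutation p = 0.0758), with HFD F at 10.8 through 16.1 to 52.8 TPM. Dusp4 (0.79) and Hspb1 (0.57) were higher in females at the threshold of the study, both with adjusted p = 0.872 in edgeR. HFD M and HFD F each serve in other comparisons above.

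**Figure D2:**
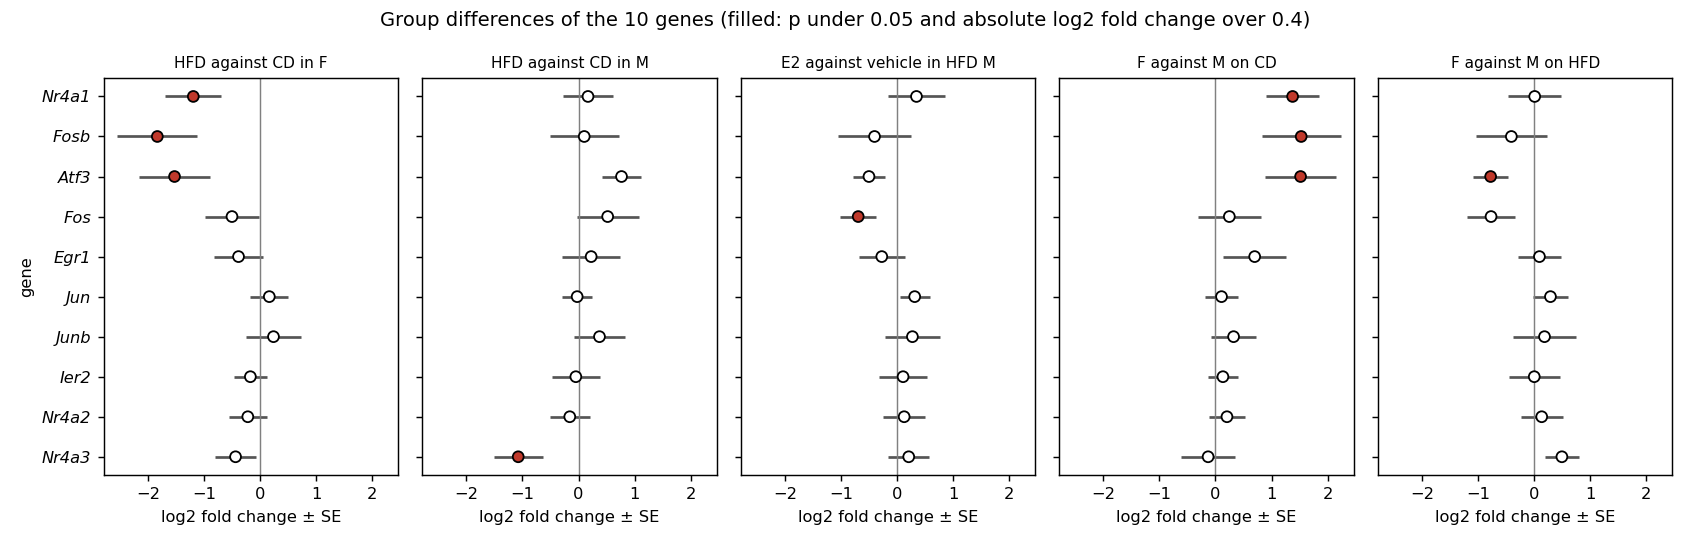
Log2 fold change with its standard error (bars) for the 10 genes in 5 comparisons, 6 animals a group, from edgeR; filled points passed the threshold of the study (p under 0.05 and an absolute log2 fold change over 0.4). Nr4a1, Fosb and Atf3 are filled in the 2 panels that share the CD F group, in opposite directions, Nr4a3 in the male diet panel, Fos in the E2 panel and Atf3 in the panel of sex on HFD.

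Over all 5 groups at once, no member passed the adjusted p in edgeR, where 3.02% of 16060 genes did, or in DESeq2. Atf3 (adjusted p = 0.220), Fosb (0.258) and Nr4a1 (0.318 in edgeR) had unadjusted p under 0.05, as 14.5% of genes had, and none of the 3 did once CD F replicates 2 and 6 were left out. In no comparison did the 2 groups fail to overlap for any member, which is given without the share of all genes.

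The 10 genes differed between animals of the same group far more than most genes did. The pooled standard deviation within groups, on log2 CPM, had a median of 0.844 over the members and 0.299 over all 16060 genes. Fosb had the largest among the members, 1.15, and its highest library had 78.7 times the CPM of its lowest. That lowest library, HFD M replicate 2, held 2 reads of Fosb, so this ratio was limited by counting error. Atf3 had 0.917 and Junb 0.897, while Jun at 0.589 and Nr4a2 at 0.633 were the steadiest. Set beside the 500 genes nearest to it in mean level, each of the 10 lay at or above the percentile 82.4 of spread, and Fos, Jun, Junb and Atf3 at 99.6. The median over the members was 0.915 in CD F, 0.828 in HFD M, 0.690 in HFD+E2 M, 0.598 in CD M and 0.583 in HFD F, against 0.251 to 0.298 over all genes in the same groups. The standard errors of the group comparisons had medians of 0.396 to 0.477 over the members and 0.149 to 0.172 over all genes in the 5 comparisons of groups.

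Within groups the genes did not move as a single block. For each gene the deviation of every library from the mean of its own group was taken, on log2 CPM, and these deviations were correlated over the 30 libraries. Among the 45 pairs the median r was 0.21, from −0.38 (Nr4a3 and Fos) to 0.91 (Junb and Ier2), and 31 were positive. In 9 pairs r was over 0.5, as it was in 5.64% of sampled pairs of all genes, and 18 of the 45 had a permutation p under 0.05 before any correction. This count is given without the share of all gene pairs with such a p. Jun, Junb and Ier2 had an absolute r over 0.5 with 32.0%, 26.8% and 24.2% of the genes outside the list. For the other members it was 0.629% (Fos) to 6.23% (Fosb). For the 9 pairs the permutation p of Spearman's rho ran from 1e-05 to 0.0184.

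**Figure D3:**
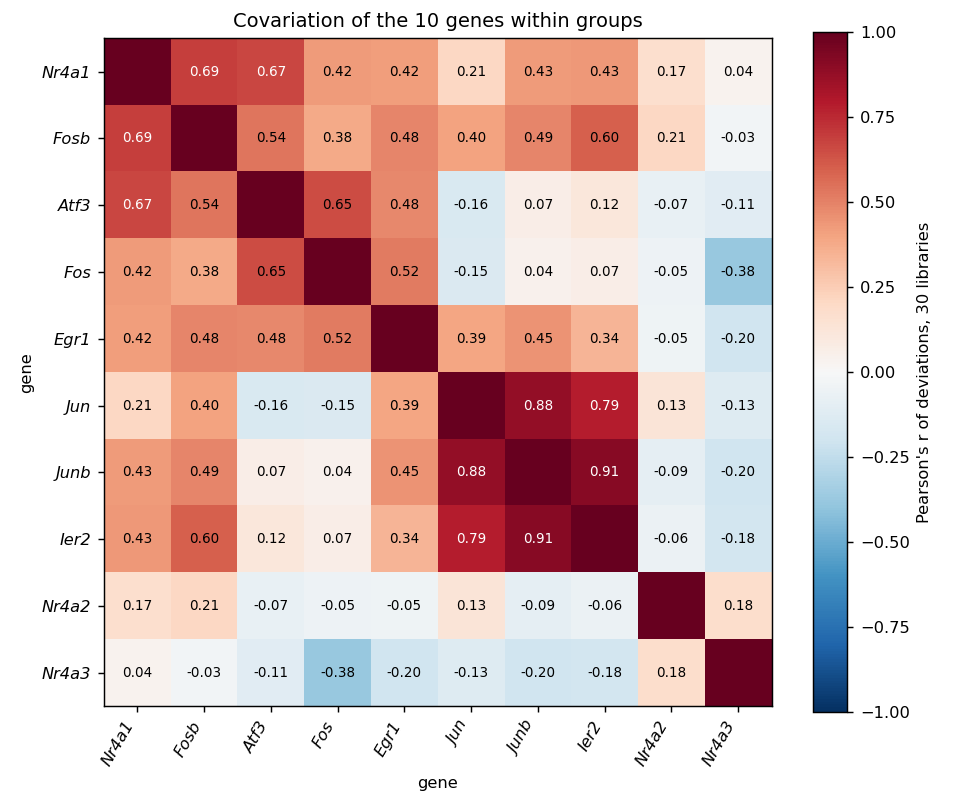
Pearson's r between the within-group deviations of each pair of the 10 genes over 30 libraries, on a colour scale from −1 to 1. Jun, Junb and Ier2 form a block with r of 0.79 to 0.91, Nr4a1, Fosb, Atf3 and Fos a looser one with r of 0.38 to 0.69, and the rows of Nr4a2 and Nr4a3 are pale. Nr4a1 and Fosb also have r of 0.21 to 0.60 with the first block.

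Jun, Junb and Ier2 varied together. Junb and Ier2 had r = 0.91 (rho 0.92), Jun and Junb r = 0.88 (rho 0.80) and Jun and Ier2 r = 0.79 (rho 0.77), each r with a permutation p of 1e-05, the smallest that 100000 permutations within groups can give. With the 2 libraries farthest from the median left out, r was 0.87, 0.82 and 0.69. Within single groups r of Jun and Junb ran from 0.66 in CD M to 0.95 in HFD F, and that of Junb and Ier2 from 0.62 in HFD+E2 M to 0.99 in HFD M. In HFD M, for example, Junb was at 2.87, 6.37 and 8.20 TPM in replicates 1 to 3 and at 14.9, 20.8 and 24.3 TPM in replicates 4 to 6, and Ier2 at 1.86, 3.84 and 4.86 TPM and then 10.9, 10.6 and 15.1 TPM. The ordering of the 2 genes was thus nearly the same from animal to animal.

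Atf3, Nr4a1, Fos and Fosb made a second, looser set. Nr4a1 had r = 0.69 with Fosb (rho 0.62, permutation p = 0.00108) and r = 0.67 with Atf3 (rho 0.61, permutation p = 0.00054), and Fos had r = 0.65 with Atf3 (rho 0.61, permutation p = 0.00021). These were positive in all 5 groups, but without the 2 libraries farthest from the median they were 0.58, 0.45 and 0.48, and in CD M and HFD F Nr4a1 and Fosb had only r = 0.03 and 0.15. Fosb and Atf3 (r = 0.54, permutation p = 0.00618) rested more on single libraries, falling to 0.36 without CD F replicate 6 and HFD M replicate 2 and being negative in CD M (−0.17) and HFD F (−0.28). Egr1 went with Fos (r = 0.52, permutation p = 0.0117), though not in CD F (0.04) or HFD+E2 M (−0.07). Across the sets, 1 pair had r over 0.5, Fosb and Ier2 at 0.60 (permutation p = 0.0046), whereas Atf3 had r of −0.16 with Jun, 0.07 with Junb and 0.12 with Ier2. Fos had −0.15, 0.04 and 0.07 with these in the same order. Fosb, however, had 0.40 with Jun and 0.49 with Junb, above its 0.38 with Fos. Nr4a1 had 0.21 with Jun, 0.43 with Junb and 0.43 with Ier2, beside 0.42 with Fos. Only Atf3 and Fos thus stood clearly apart from Jun, Junb and Ier2. Nr4a2 and Nr4a3 had no r over 0.5 with any member, their r lying between −0.38 and 0.21. Nr4a3 ran against Fos by rank (rho −0.47, permutation p = 0.0227), with r = −0.38 (permutation p = 0.0946), −0.33 without the 2 farthest libraries, and a negative r in 4 of the 5 groups. Both receptors lie at levels where counting error is large.

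**Figure D4:**
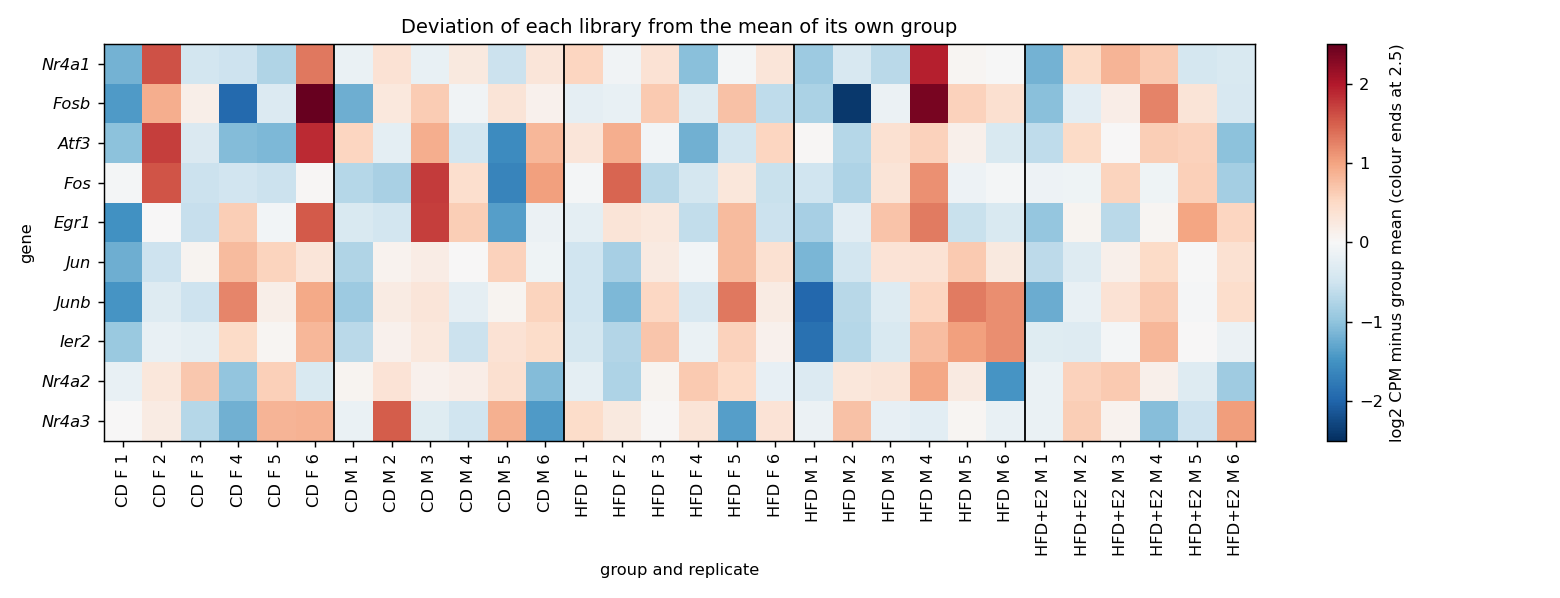
Deviation of log2 CPM from the group mean for the 10 genes (rows) in the 30 libraries (columns, by group and replicate), red above and blue below the mean. CD F replicates 2 and 6 are red for Nr4a1, Fosb and Atf3, HFD M replicate 4 is red for 9 of the 10 genes, and replicate 1 is blue for most genes in every group.

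Libraries could be described by how many members were high in them. HFD M replicate 4 had 9 of the 10 members above its group mean and the highest value of its 6 animals for 6 of them, among them Nr4a1 at 5.64 TPM where the other HFD M animals had 0.642 to 1.11 TPM. CD F replicate 6 had 9 above the mean and was the highest for 5. CD F replicate 2 was the highest for 2, Nr4a1 and Fos, and the latter stood at 74.8 TPM where the other CD F animals had 13.1 to 25.2 TPM. At the other end, HFD+E2 M replicate 1 had none above its group mean, and CD F replicate 1 and HFD M replicate 1 had 1 each. With 2 in CD M and 3 in HFD F, replicate 1 was below the group mean for most members in every group.

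The same question was put to all genes, by adding the log2 CPM of 1 member as a covariate to the group model and testing every other gene. Of the 90 slopes of one member on another, 12 passed the adjusted p, all positive. Fosb on Nr4a1 had a slope of 1.04 (SE 0.17, adjusted p = 0.00479 in edgeR) where 0.0623% of 16059 genes were called, and Nr4a1 on Atf3 had 0.68 (SE 0.14, adjusted p = 0.0316 in edgeR) where 0.081% were. Without CD F replicates 2 and 6 neither was called, Fosb on Nr4a1 having an adjusted p of 0.171 and Nr4a1 on Atf3 of 1 in edgeR. In turn, Nr4a1 on Fosb and Ier2 on Fosb were called only without CD F replicates 2 and 6 (adjusted p = 0.0169 and 0.0267 in edgeR). There 1826 of 16441 genes were called on Fosb. Under the replicate block described below, Nr4a1 on Fosb was also called (adjusted p = 0.0375 in edgeR). The other 10 of the 12 slopes lay on Jun, Junb or Ier2, with Fosb called on all 3 and Egr1 on Junb. With the sample number in the labels as a further covariate 9 of the 12 were called, and those lost were Fosb on Jun (adjusted p = 0.589 in edgeR), Fosb on Junb (0.234) and Egr1 on Junb (0.325). Egr1 on Junb was also lost without CD F replicates 2 and 6 and without mitochondrial genes. For Jun, Junb and Ier2 as covariates in the group model, the count says little of the members, since the background was 37.2%, 31.4% and 27.9% of all genes. With the sample number added, 3758 of 16059 genes were called on Jun, 1900 on Junb, 1653 on Ier2, 12 on Nr4a1 and 18 on Atf3. As covariates in the group model over all 30 libraries, Fos (0.0125% of genes called), Nr4a2 (0.00623%), Nr4a3 (0%), Fosb (0%) and Egr1 (0%) called no other member in edgeR. For the 3 at 0%, 651, 3197 and 855 genes had an unadjusted p under 0.05, and no other tool was run.

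The set of Jun, Junb and Ier2 also followed the sample number in the labels, which runs from 101 to 130 across the groups, with the replicate numbers of each group in the same order. What this order stands for in the laboratory is not given in the sources used here. The deviations of Jun, Junb and Ier2 had r of 0.72, 0.77 and 0.70 with it, those of Fosb and Egr1 had 0.47 and 0.33, and those of Fos, Atf3 and Nr4a1 had −0.03, 0.02 and 0.24. Nr4a2 and Nr4a3 had −0.23 and −0.08. Of all genes, 14.1% had an absolute r over 0.5. With the number taken out, r was 0.82 for Junb and Ier2, 0.74 for Jun and Junb and 0.58 for Jun and Ier2, and 0.68 for Nr4a1 and Atf3, 0.65 for Fos and Atf3 and 0.68 for Nr4a1 and Fosb, so both sets were still seen, while Fosb and Ier2 came down to 0.43. Across 15983 genes, the r of a gene with Ier2, Junb or Jun was higher with a higher GC content of its transcript (Spearman's rho 0.64, 0.60 and 0.47 across genes, which are not independent replicates). For Nr4a1 and Fosb rho was 0.56 and 0.52, and for Fos and Atf3 it was −0.12 and −0.08. Jun, Junb and Ier2 are the 3 members with a single exon, and their transcripts have 55.5%, 62.6% and 60.9% GC, where the median gene had 49.0%. With the mean of the smooth muscle markers the members had a median r of 0.42. Jun had 0.63, Nr4a2 0.52, Fosb 0.49, Junb 0.47, Ier2 0.42, Egr1 0.42 and Nr4a1 0.31, whereas Fos had 0.07, Atf3 −0.07 and Nr4a3 −0.19. The part of number, GC content and smooth muscle in the covariation was not tested beyond these values.

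**Figure D5:**
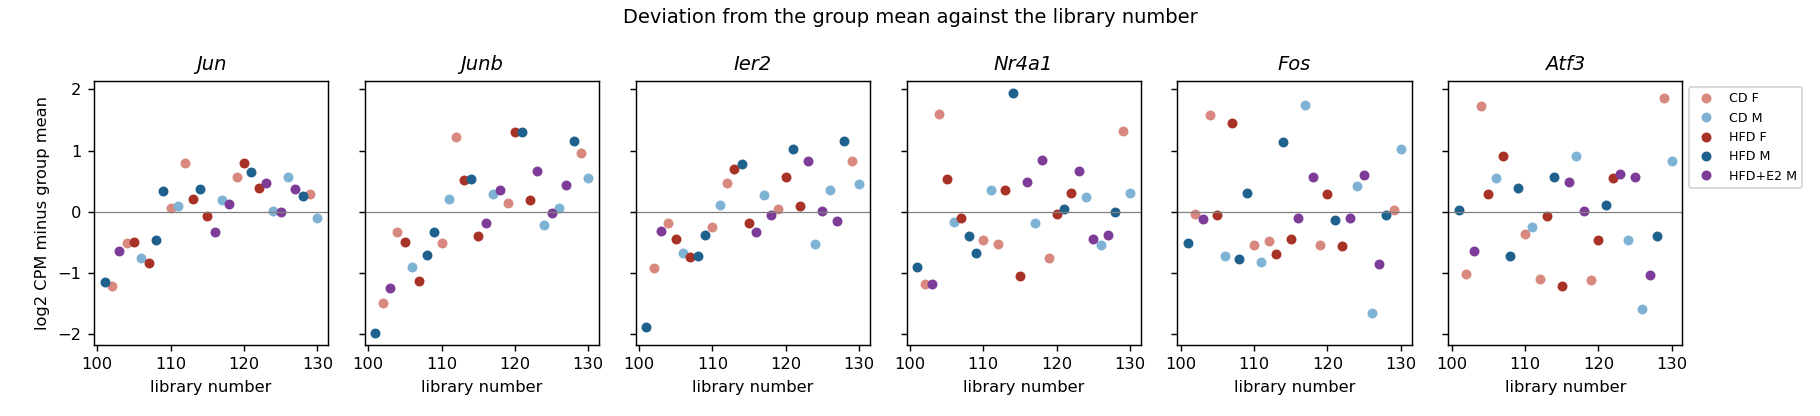
Deviation of log2 CPM from the group mean against the sample number in the labels (library number, 101 to 130) for 6 genes, 1 point a library, coloured by group. Jun, Junb and Ier2 climb with the number (r of 0.72, 0.77 and 0.70), while Nr4a1, Fos and Atf3 show high libraries at both low and high numbers.

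The genes outside the list that went most closely with the mean standardized deviation of the 10, among 13706 genes of at least 1 TPM, were Plk3, a stress-response kinase (r = 0.78), Plekho1 (0.78), Spata2 (0.76), Zswim4 (0.74), Midn (0.74), Rhbdf2 (0.73), Hs3st1 (0.73), B4galt3 (0.73), Dusp10 (0.73) and Asb2 (0.73), where 8.78% of these genes had r over 0.5. Of the lists, the mean of the feedback regulators had a median r of 0.54 with the 10 members (−0.11 to 0.81) and the other early transcription factors 0.45, but the smooth muscle markers had 0.42, the fibroblast markers 0.31, the upstream regulators 0.30, the SRF or YAP targets 0.26 and the heat shock genes 0.06. These medians cover unlike members. The upstream regulators had r of 0.83 with Jun, 0.84 with Junb and 0.78 with Ier2. With Fos and Atf3 they had −0.16 and −0.14, and with the other members −0.003 to 0.44. Taken member by member, Atf3 went most closely with Errfi1, the feedback inhibitor of the EGF receptor (r = 0.87), and Nr4a1 with Plk3 (0.79), the kinase gene Sik1 (0.78) and Areg, an EGF receptor ligand (0.75). Egr1 was nearest to Id1 (0.68), an inhibitor of bHLH factors. Jun was nearest to Myo10 (0.94), Junb to Rpl36 (0.93) and Ier2 to Egln2 (0.94). Nr4a2 had Nek5 (0.79) and Nr4a3 had Medag (0.66) as its nearest. These are the highest of very many values over the same 30 libraries and are given as a description.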

How the data were processed

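Colon RNA was sequenced with a stranded, ribosomal RNA depleted kit. Per the labels and the study's methods, the authors trimmed reads with Trim Galore, mapped them to mm10 (GRCm38) with STAR, counted them per gene with featureCounts (the deposited counts, 1 column a library, all 30 used, 0 left out) and estimated the deposited TPM with StringTie. Versions and the strand setting of the counting are not given in the sources used here. Exons of Jun overlap those of Junos and exons of Junb those of Prdx2 on the other strand, so their reads may be mixed.

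Counts were tested with edgeR 4.0.16 (filterByExpr, TMM, robust quasi-likelihood, Benjamini-Hochberg adjustment over all genes tested), 12 libraries a comparison, and with DESeq2 1.42.0 as an alternative. The study's threshold was applied to unadjusted p, since it does not say which p it means. The interaction used 24 libraries, and the 5-group test, the spread, the covariates and the correlations used all 30, on log2 CPM with a prior count of 2. In simulated counts the median size of the changes and slopes put in was closely recovered, for genes drawn at random from all expressed genes. No share of calls was required for the smaller changes. The members spread more within groups than most genes (median standard deviation 0.844 against 0.299 on log2 CPM). The power to detect changes in genes of such spread was therefore not shown. The 10 genes, the gene lists and the naming rule (members, list genes past a threshold with at most 3 a list in each comparison, and the 10 genes most like the members) were chosen with earlier results of these data known. The genes nearest to single members were named outside this rule, after their values were seen. Alternatives covered tool, scaling, filter, libraries, replicate block, TPM with pseudocounts of 0.1 and 1, and mitochondrial genes. Leaving out CD F replicates 2 and 6, and the sample number as a covariate, were added after seeing the data.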

Additional observations from a re-analysis of the deposited data

Results flagged for a closer look

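Each of the 50 combinations of a member and a group was examined for 1 animal far from the other 5, by the gap to its nearest neighbour over the range of the group on log2 CPM, against the critical value of Dixon's test. Chance alone flags about 1 in 20 groups, that is 2.5 of 50, and 6 stood out. Fos in CD F replicate 2 (0.732) was at 74.8 TPM where the other animals had 13.1 to 25.2 TPM. Nr4a1 in HFD M replicate 4 (0.668) was at 5.64 TPM against 0.642 to 1.11 TPM. Ier2 in HFD+E2 M replicate 4 (0.708) was at 13.5 TPM against 4.77 to 8.20 TPM. Nr4a2 in CD M replicate 6 (0.785) was low, at 0.185 TPM against 0.448 to 1.53 TPM, as was Nr4a3 in HFD F replicate 5 (0.761), at 0.103 TPM against 0.246 to 0.869 TPM. Nr4a3 in HFD M replicate 2 (0.685) was high, at 0.547 TPM against 0.129 to 0.371 TPM. CD F replicates 2 and 6 were not singled out for Nr4a1 or Atf3, because a pair of high animals hides each other from this measure.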

How the results depend on the processing

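No member passed the adjusted p in any of the 5 comparisons or the interaction under any alternative run. Of 1287 recomputed log2 fold changes, over 60 member values, 93 turned direction, and 1 of these had passed the threshold of the study, Fosb in F against M on CD (−0.00505 without CD F replicates 2 and 6). The numbers of members past the threshold of the study were less steady. Without CD F replicates 2 and 6 together the count was 0 for HFD against CD in F, for F against M on CD, for the interaction and for members with p under 0.05 among the 5 groups. With DESeq2 it was 2 for HFD against CD in M and 2 for the interaction. With the size factors of DESeq2, or without mitochondrial genes, it was 2 for HFD against CD in M. For E2 against vehicle it was 0 with no filter, without mitochondrial genes, with all 30 libraries in 1 fit and with the sample number as a covariate. For F against M on CD it was 1 with no filter, for F against M on HFD 0 with all 30 libraries in 1 fit, and for the interaction 2 with the sample number. Over all genes the numbers past this threshold changed as well. With DESeq2 it was 603 of 27820 genes for HFD against CD in M (434 of 14991 in edgeR). For the interaction it was 1008 of 29643 (818 of 15800 in edgeR). Without CD F replicates 2 and 6 it was 579 of 15471 for HFD against CD in F (553 of 15061 with them). For F against M on CD it was then 1236 of 15230 (1366 of 14922 with them). The cause of these moves was not tested.

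The replicate block gave 2 for E2 against vehicle, 1 for F against M on CD, 0 for F against M on HFD, 0 members with p under 0.05 among the 5 groups and 6 called slopes in place of 12, of which 5 were among the 12. Of all genes, 1263 of 16365 passed the threshold of the study under the block for E2 against vehicle. For F against M, 1712 of 16049 did on CD and 620 of 16614 on HFD. In HFD against CD in F, Nr4a1 (−0.90) and Fosb (−1.15) no longer passed under the block, whereas Atf3 did and Fos (−0.47) came to pass. The slopes lost were Nr4a1 on Atf3, Fosb on Jun, Junb and Ier2, Egr1 on Junb, and Jun and Ier2 on each other. Numbers shared across groups mark no common animal, and libraries of the same number deviated together (r over 0.1) in 2 to 5 of 6 pairs. Of the 6 libraries of the first-named group, at most 3 in any comparison matched their own number best in the other group.

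Leaving out 1 library at a time gave 0 to 3 members for HFD against CD in F (0 without CD F replicate 6, and 1 without CD F replicate 2, HFD F replicate 4 or HFD F replicate 5), 0 to 2 for HFD against CD in M (0 without CD M replicate 2 or 5, 2 without CD M replicate 3 or 6 or HFD M replicate 2, 4 or 6), 0 to 2 for E2 against vehicle (0 without HFD M replicate 3, 5 or 6 or HFD+E2 M replicate 1, 2, 4 or 6, 2 without HFD M replicate 2), 1 to 3 for F against M on CD (1 without CD F replicate 2 or 6 or CD M replicate 1, 2, 4 or 5), 0 to 2 for F against M on HFD (0 without HFD F or HFD M replicate 3, 2 without HFD F or HFD M replicate 2) and 1 to 3 for the interaction (2 without CD F replicate 4 or 5 or HFD M replicate 2 or 3, 3 without replicate 1 of CD F or HFD M). Among the 5 groups it gave 0 to 1 member past the adjusted p, the 1 being Nr4a1 (adjusted p = 0.044 in edgeR) without HFD M replicate 4. In that fit 485 of 16235 genes passed, and 380 to 616 genes did over all such fits of the 5 groups. Members with p under 0.05 numbered 0 to 4 (0 without CD F replicate 2 or replicate 6), given without the share of all genes. Of all genes, leaving out 1 library left 481 to 827 past the threshold of the study for HFD against CD in F. The range was 346 to 706 for HFD against CD in M and 557 to 1497 for E2 against vehicle. It was 1223 to 1684 for F against M on CD, 363 to 770 for F against M on HFD and 641 to 1418 for the interaction. With 1 library left out, the median r was 0.16 to 0.25, and 8 to 13 pairs had r over 0.5. In 1 group alone the median r was 0.08 in CD M, 0.13 in HFD F, 0.27 in HFD+E2 M, 0.34 in CD F and 0.48 in HFD M, with 10, 10, 15, 15 and 22 pairs over 0.5. Fosb and Atf3 turned negative in CD M (−0.17) and HFD F (−0.28), and Fos and Egr1 in HFD+E2 M (−0.0696). Nr4a2 with 3 to 39 and Nr4a3 with 6 to 72 reads a library are the members most limited by depth, and Fosb fell to 2 reads in its lowest library.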
